A study of Mus musculus with 6 samples.

Results

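The core machinery of autophagy and its regulators were followed in mouse liver through 43 genes. They were taken from the FPKM table by gene symbol, and all 43 were among its 24346 symbols and passed the filter on low values. The genes were taken in 6 steps, which are initiation (5 genes), the phosphatidylinositol 3-kinase (PI3K) complex (6 genes), membrane supply (7 genes), conjugation (11 genes), fusion with the lysosome (8 genes) and control by mTOR and TFEB (6 genes).

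The livers came from male C57BL/6J mice that received CDAHFD, a choline-deficient high-fat diet with defined L-amino acids that produces steatohepatitis, from 8 weeks of age for 6 weeks and were back on normal chow for 2 weeks at analysis. After the diet each mouse was given an AAV8 vector with the liver-specific pTBG promoter, which directs expression to hepatocytes. The 3 lipophagy livers expressed LDTS-eLIR, an adapter that joins the lipid droplet-targeting sequence of perilipin 1 to an engineered LC3-interacting region. The 3 control livers expressed LDTS-LIR mut, whose LC3-interacting region is mutated, so both groups carried the droplet-targeting part and differed in the LC3-interacting region, and no liver without a vector was analysed here.

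Autophagy starts when the ULK1 kinase complex, which mTORC1 holds inactive in fed cells, is released and activates the PI3K complex on a membrane of the endoplasmic reticulum. Lipid transfer proteins and ATG9 vesicles enlarge this membrane, and a pair of ubiquitin-like conjugation systems attach ATG8 proteins such as LC3 to it. The closed autophagosome is then tethered to the lysosome and fuses with it, and the factors TFEB and TFE3 drive transcription of autophagy and lysosomal genes. In hepatocytes this route also delivers lipid droplets to the lysosome, which is called lipophagy.

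DNA upstream of the gene is shown for Atg13, Ulk1 and Atg3, the genes with the largest positive differences between the groups, and a short stretch of the RefSeq promoter window for the other genes with the E-box CACGTG that TFEB and TFE3 bind. The sequences are from RefSeq promoters on GRCm38.p6, read 5′ to 3′ on the strand of the gene. The stretches of Atg13 (chr2:91710598-91710737, minus strand), Ulk1 (chr5:110810121-110810260, minus strand) and Atg3 (chr16:45158645-45158784, plus strand) lie upstream of the first annotated start. Those of Atg5 (chr10:44268313-44268342, plus strand), Atg7 (chr6:114670952-114670981, plus strand) and Atg14 (chr14:47568418-47568447, minus strand) hold the motif and the bases on both sides of it. The Atg7 stretch belongs to the window of an internal start and lies inside the gene. The motif of Atg5 precedes the RefSeq start of its window but lies inside the gene, since another annotated start is farther upstream. The motif of Atg14 spans the start, with its first base just before it. Capitals mark CACGTG.
Atg13: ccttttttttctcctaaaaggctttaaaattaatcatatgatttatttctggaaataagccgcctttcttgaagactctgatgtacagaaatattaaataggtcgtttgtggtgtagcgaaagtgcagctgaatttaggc
Ulk1: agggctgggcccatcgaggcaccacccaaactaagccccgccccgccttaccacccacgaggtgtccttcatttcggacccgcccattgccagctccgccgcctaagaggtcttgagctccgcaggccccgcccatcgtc
Atg3: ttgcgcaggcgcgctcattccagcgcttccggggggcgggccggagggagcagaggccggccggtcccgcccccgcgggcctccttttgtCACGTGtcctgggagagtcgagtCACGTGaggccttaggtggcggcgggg
Atg5: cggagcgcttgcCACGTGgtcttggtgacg
Atg7: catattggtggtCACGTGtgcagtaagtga
Atg14: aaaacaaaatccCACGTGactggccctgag

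The stretch of Atg13 was AT-rich, with a GC content of 34.3%, against 67.1% for Ulk1 and 73.6% for Atg3. RefSeq windows of 300 bases, of which 250 precede the start, were given for 36 of the 43 genes. CACGTG, read on both strands, was in the windows of 4 of these 36 genes, namely Atg3, Atg5, Atg7 and Atg14, against 8.09% of all genes with a window. Counted by window, it was in 7.15% of all 32851 promoters. Atg3 held it at 94 and at 71 bases before its start. The longer TCACGTGA, which contains CACGTG and is the inner part of the CLEAR element, was found in Atg3 and in 1.12% of all genes with a window. These matches describe the letters of the window, and binding was not measured.

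The level of a gene is given in FPKM, that is, fragments corrected for the length of the transcript and for the size of the library, which allows genes of different length to be set side by side. Mean FPKM over the 6 livers ranged from 1.44 for Epg5, a tether of autophagosomes to lysosomes, to 91.0 for Rab7, the small GTPase of late endosomes and lysosomes. After Rab7 came Vmp1, a lipid scramblase of the endoplasmic reticulum, at 46.0 FPKM and Atg3, the E2-like enzyme that transfers LC3 to lipid, at 40.0 FPKM. Wdr45 at 31.9 FPKM, Atg101 at 31.2 FPKM and Becn1 at 31.2 FPKM followed, and their ranges over livers overlapped. Within each step the levels were uneven, as Becn1 stood far above the other PI3K complex genes, which had means from 3.21 to 7.89 FPKM. At the lower end Tsc1, Atg2b, Tecpr1 and Epg5 lay at or below 2.06 FPKM.

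**Figure D1:**
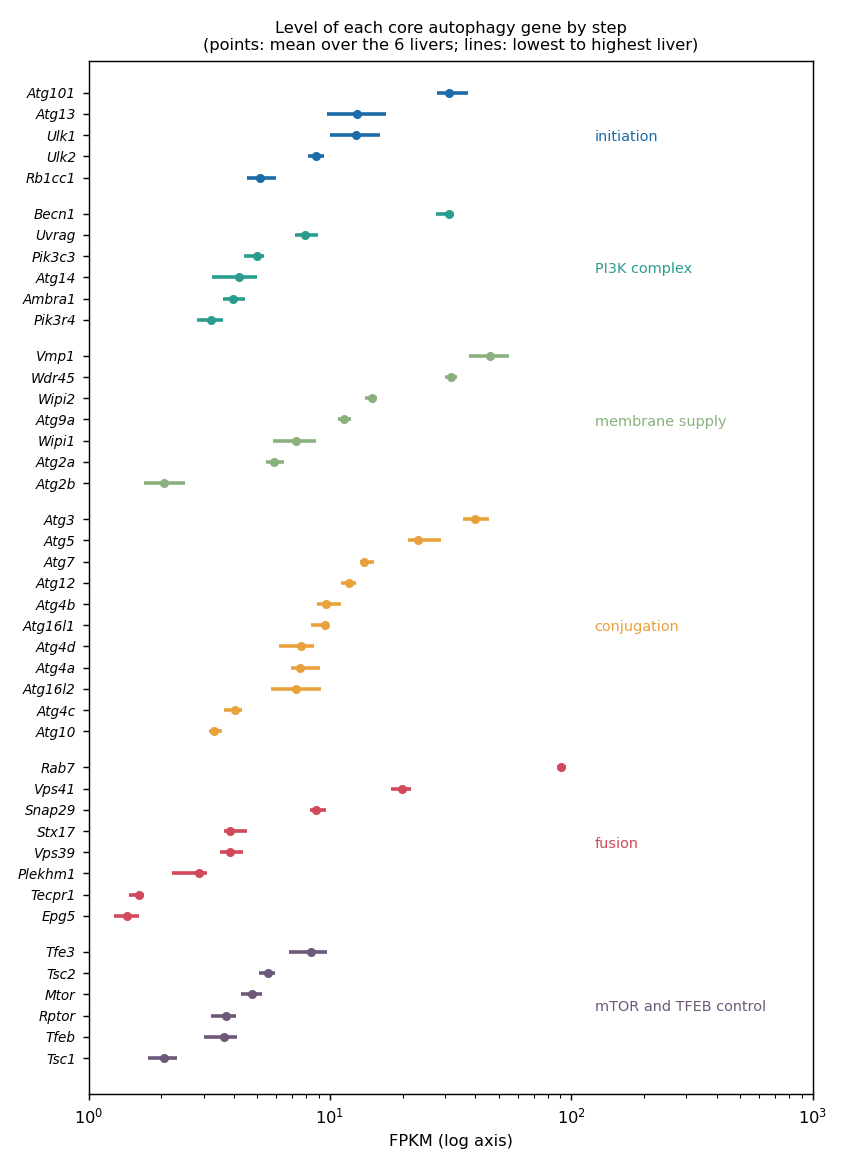
FPKM on a log axis for the 43 genes, grouped by step and sorted by level within it. Points are means over the 6 livers and lines run from the lowest to the highest liver, from Epg5 at 1.44 to Rab7 at 91.0.

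Most of these genes had a somewhat higher mean in lipophagy livers, and no single gene passed the adjusted test. Of the 43 genes 29 had a higher and 14 a lower mean on the log2(FPKM + 1) scale, so 67.4% were higher, against 54.5% of all 11493 tested genes. Their median difference, lipophagy minus control, was 0.08 log2 units and that of all tested genes 0.02, and quantile normalization took the members' median to 0.03. The differences of the 43 genes ranged from -0.28 for Atg16l2 to 0.53 for Atg13. The difference was tested with limma on genes whose mean over the livers reached 0.5 FPKM, with Benjamini-Hochberg adjustment. The lowest adjusted p of a member was 0.103, so 0 members passed 0.05, while 0.0261% of all tested genes did. At an unadjusted p below 0.05 there were 4 members, beside 19.5% of all genes. Of these, 3 members were higher, Atg13, Ulk1 and Atg3, beside 11.5% of all genes, and 1 was lower, Atg16l2, beside 7.97% of all genes. In 12 members every lipophagy liver lay above every control liver, beside 15.4% of all genes, and in 1 member, Pik3r4, every lipophagy liver lay below, beside 10.8%. In the other 30 members the livers of the groups overlapped. The standard errors were 0.071 to 0.14 log2 units.

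**Figure D2:**
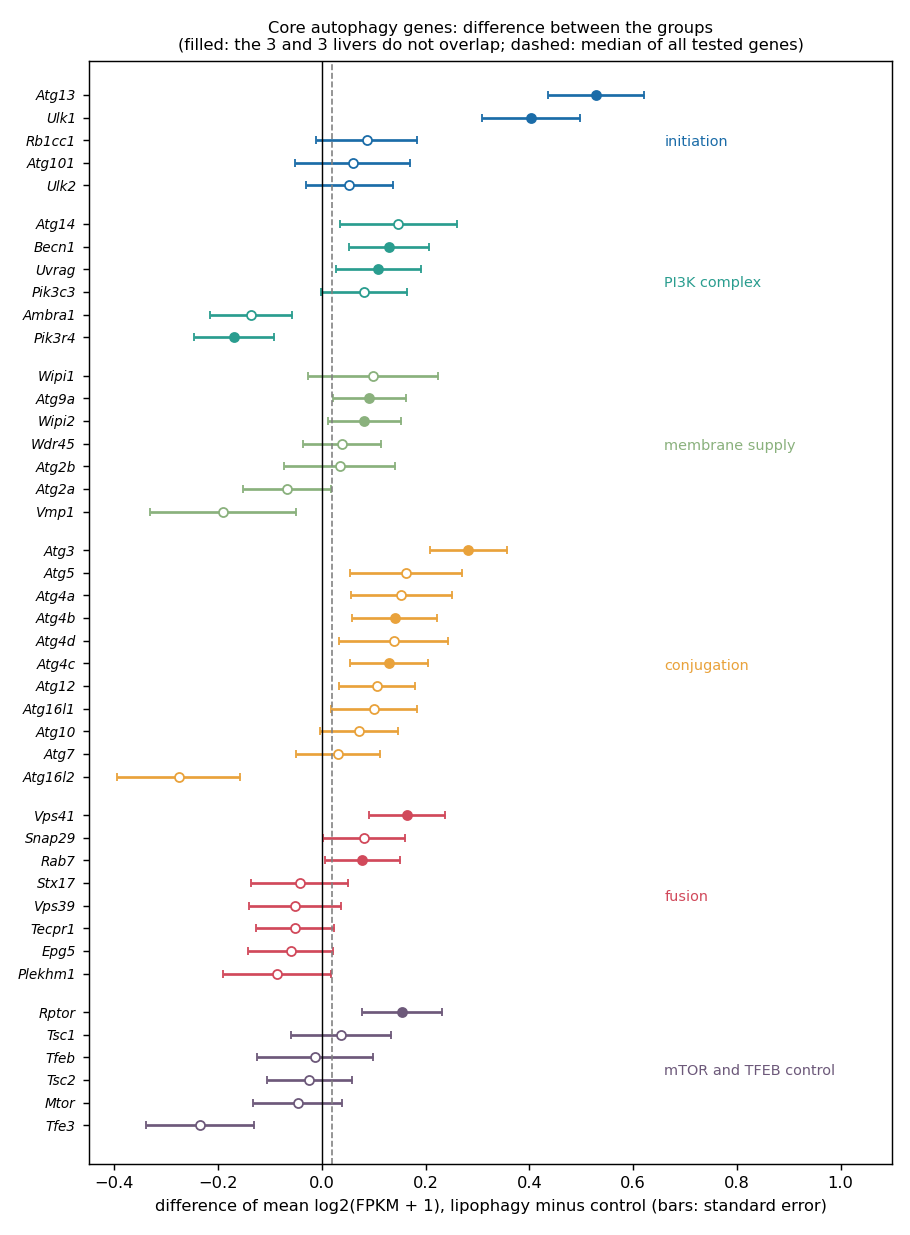
Difference in log2(FPKM + 1), lipophagy minus control, for each of the 43 genes by step, with bars of 1 standard error from limma and a dashed line at the median of all tested genes (0.02). Filled points mark the 13 genes whose livers do not overlap. Atg13 at 0.53 and Ulk1 at 0.40 lie farthest to the right and Atg16l2 at -0.28 farthest to the left.

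In the initiation complex, 2 genes, Atg13 and Ulk1, had the largest differences of all members, and the other 3 differed by 0.05 to 0.09 log2 units. Its 5 genes all had higher means in lipophagy livers, with a median difference of 0.09 log2 units. Atg13, the adaptor that holds the ULK1 kinase complex together, is encoded on chromosome 2 (91674612 to 91710597). It measured 9.69, 11.1 and 10.6 FPKM in control livers and 17.1, 14.3 and 15.1 FPKM in lipophagy livers. The lowest lipophagy liver was thus above the highest control liver. Group means were 10.4 ± 0.713 and 15.5 ± 1.43 FPKM (SD, n = 3), and the limma difference was 0.53 log2 units (SE 0.092, 95% interval 0.32 to 0.74, adjusted p = 0.103).

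Ulk1, the kinase of the complex and a direct target of mTORC1 and AMPK, lies on chromosome 5 (110784489 to 110810120). Control livers had 11.96, 10.01 and 10.79 FPKM, and lipophagy livers 14.1, 14.0 and 16.2 FPKM. The groups did not overlap, and lipophagy liver 3 was the highest. The means were 10.9 ± 0.982 and 14.8 ± 1.24 FPKM (SD, n = 3), a limma difference of 0.40 log2 units (SE 0.095, 95% interval 0.18 to 0.62, adjusted p = 0.134).

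The other initiation genes overlapped between groups. Ulk2, the paralogue of Ulk1, had a difference of 0.05 log2 units (95% interval -0.14 to 0.25). Rb1cc1, which encodes the scaffold FIP200, differed by 0.09 log2 units. The stabilising subunit Atg101 ranged from 27.8 to 37.4 FPKM in lipophagy livers and from 29.4 to 31.3 FPKM in control livers, and its difference of 0.06 became -0.06 after quantile normalization. When the 5 genes were averaged within a liver as deviations from each gene's mean, control livers lay at -0.12, -0.11 and -0.10 log2 units and lipophagy livers at 0.11, 0.09 and 0.14. Most of each average came from Atg13 and Ulk1. The averages of a group lay close together, although single genes did not. Atg101 deviated by 0.26 in lipophagy liver 1 and -0.16 in lipophagy liver 3, and Rb1cc1 by -0.14 and 0.19 in the same livers.

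**Figure D3:**
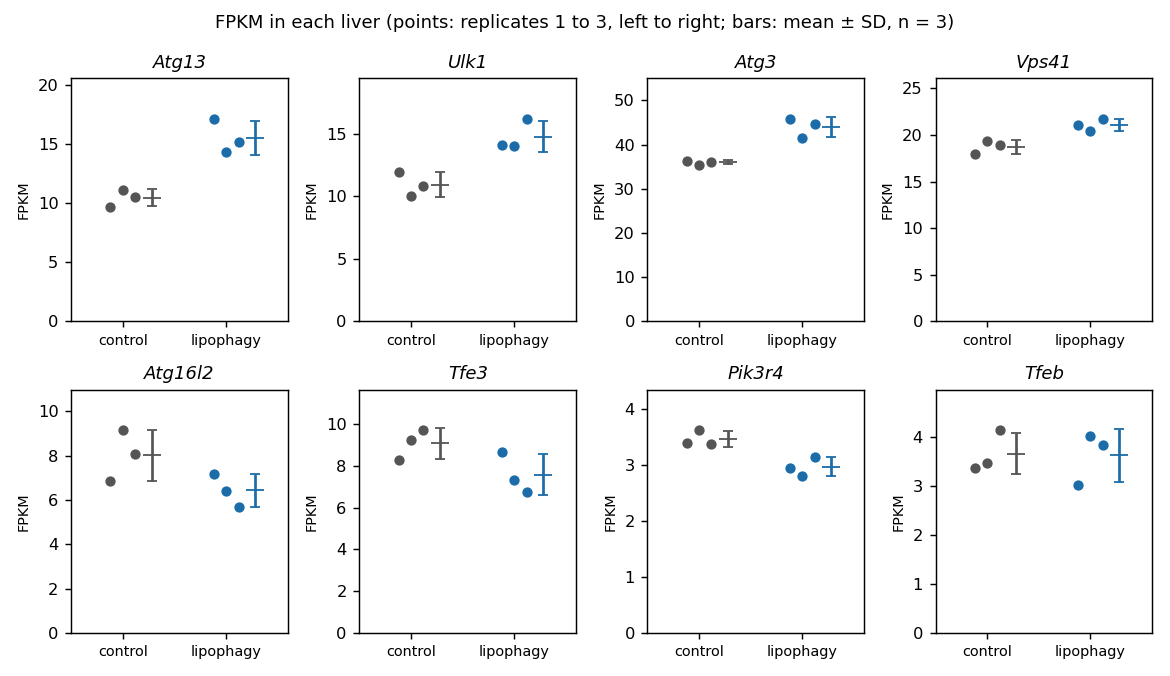
FPKM in each liver, on axes that start at 0, for Atg13, Ulk1, Atg3, Vps41, Atg16l2, Tfe3, Pik3r4 and Tfeb, with points for the livers and bars for the mean and SD (n = 3). The groups do not overlap for Atg13, Ulk1, Atg3 and Vps41 (higher) and Pik3r4 (lower), and they overlap for Atg16l2, Tfe3 and Tfeb.

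In the PI3K complex, which makes phosphatidylinositol 3-phosphate on the growing membrane, 4 of 6 genes had higher and 2 lower means, with a median difference of 0.09 log2 units and no unadjusted p below 0.05. Becn1, the regulatory subunit beclin 1, measured 27.6, 31.2 and 30.4 FPKM in control livers and 32.1, 32.8 and 32.8 FPKM in lipophagy livers. Uvrag, the subunit that directs the complex to endosomes, measured 7.16, 7.70 and 7.79 FPKM against 7.84, 7.93 and 8.90 FPKM. In both genes the lipophagy livers lay above the control livers, by 0.13 log2 units (adjusted p = 0.376, limma) for Becn1, which quantile normalization took to 0.01, and 0.11 (adjusted p = 0.476, limma) for Uvrag, which was 0.06 without lipophagy liver 3. The exons of Becn1 overlap those of a gene on the opposite strand over 29.6% of their length.

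Pik3r4, the scaffold subunit VPS15, had a lower mean in lipophagy livers. Its levels were 3.39, 3.62 and 3.37 FPKM in control livers and 2.94, 2.81 and 3.15 FPKM in lipophagy livers. Every lipophagy liver was below every control liver, and the difference was -0.17 log2 units (SE 0.077, adjusted p = 0.270, limma). Atg14, which directs the complex to autophagosome formation, had the largest positive difference of the step, with 3.25, 4.28 and 4.27 FPKM in control livers and 4.05, 4.98 and 4.31 FPKM in lipophagy livers. Control liver 1 was the lowest and the groups overlapped (0.15 log2 units, adjusted p = 0.484, limma, and 0.04 without control liver 1). The catalytic subunit Pik3c3 differed by 0.08, and Ambra1, a beclin 1-binding scaffold, by -0.14 log2 units, both with overlapping livers.

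For membrane supply 5 of 7 genes had higher means, and the median difference was 0.04 log2 units. This median was 0.0021 after quantile normalization and 0.00069 to 0.09 without 1 liver. Atg9a, the scramblase carried on ATG9 vesicles, measured 11.2, 11.1 and 10.8 FPKM in control livers and 11.8, 12.2 and 11.5 FPKM in lipophagy livers. Wipi2, which reads phosphatidylinositol 3-phosphate and recruits ATG16L1, measured 13.9, 14.9 and 14.7 FPKM against 15.2, 15.3 and 15.7 FPKM. Neither gene overlapped between groups, yet the differences were small, at 0.09 (adjusted p = 0.486, limma) and 0.08 log2 units (adjusted p = 0.534, limma). Quantile normalization took them to 0.02 and 0.0021. The exons of Atg9a overlap other genes over 42.6% of their length, and those of Wdr45 over 40.4%.

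The largest positive and negative differences of this step were in genes that varied between livers. Wipi1, a relative of Wipi2, had 7.40, 5.79 and 7.69 FPKM in control livers and 6.90, 6.94 and 8.72 FPKM in lipophagy livers (0.10 log2 units, adjusted p = 0.680, limma). Vmp1 had 39.3, 53.2 and 55.3 FPKM in control livers and 44.9, 45.6 and 37.8 FPKM in lipophagy livers (-0.19 log2 units, SE 0.14, adjusted p = 0.464, limma). Control liver 1 lay among the lipophagy livers for Vmp1, and quantile normalization took its difference to -0.33 (unadjusted p = 0.019, limma), while it ran from -0.34 without control liver 1 to -0.10 without control liver 3, with -0.11 without lipophagy liver 3. The lipid transfer proteins Atg2a and Atg2b differed by -0.07 and 0.03 log2 units. The difference of Wdr45, a further phosphoinositide-binding protein, was 0.04 and turned to -0.08 after quantile normalization.

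Conjugation genes mostly had higher means in lipophagy livers, in 10 of 11 cases, with a median difference of 0.13 log2 units. Atg3, on chromosome 16 (45158829 to 45188538) and with the E-box motifs printed above, measured 36.4, 35.5 and 36.2 FPKM in control livers and 45.8, 41.6 and 44.7 FPKM in lipophagy livers. The control livers lay within 1 FPKM of each other, and all lipophagy livers were more than 5 FPKM above them. The means were 36.0 ± 0.478 and 44.0 ± 2.22 FPKM (SD, n = 3), with a limma difference of 0.28 log2 units (SE 0.074, 95% interval 0.11 to 0.45, adjusted p = 0.146). After quantile normalization the difference was 0.15 and its unadjusted p 0.075 (limma).

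The Atg4 proteases, which prepare ATG8 proteins for lipidation and release them again, all had higher means, with differences of 0.13 to 0.15 log2 units. Except for Atg4c, these depended on single livers, with 0.04 for Atg4d without control liver 1, 0.07 for Atg4a without lipophagy liver 2 and 0.08 for Atg4b without lipophagy liver 1. Atg4c stayed at 0.10 to 0.16 without 1 liver. Atg4b, the main LC3 protease, measured 8.85, 9.21 and 9.22 FPKM in control livers and 11.1, 9.79 and 9.55 FPKM in lipophagy livers. Atg4c measured 3.65, 4.07 and 3.78 FPKM against 4.27, 4.31 and 4.27 FPKM, the lipophagy livers being nearly alike. The livers of the groups did not overlap for Atg4b (adjusted p = 0.369, limma) and Atg4c (adjusted p = 0.366, limma), whereas those of Atg4a and Atg4d did. The exons of Atg4d overlap another gene over 23.2% of their length.

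Atg5, which joins ATG12 in the conjugate that guides LC3 to the membrane, had 22.7, 21.0 and 21.5 FPKM in control livers and 28.8, 22.8 and 22.2 FPKM in lipophagy livers. Lipophagy liver 1 stood above the rest and the other livers of both groups overlapped (0.16 log2 units, 95% interval -0.09 to 0.41, and 0.04 after quantile normalization). Atg12 differed by 0.11, the E2-like enzyme Atg10 by 0.07, and Atg16l1 by 0.10 log2 units, all with overlapping livers. After quantile normalization Atg12 was at 0.04 and Atg16l1 at 0.06, and without control liver 3 Atg16l1 was at 0.04. The E1-like enzyme Atg7, whose window holds the E-box, differed by 0.03, and by -0.04 after quantile normalization.

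Atg16l2, the less studied paralogue of Atg16l1, was the one conjugation gene with a lower mean. It measured 6.85, 9.15 and 8.05 FPKM in control livers and 7.17, 6.42 and 5.69 FPKM in lipophagy livers. Control liver 1 was below lipophagy liver 1, so the groups overlapped. The difference was -0.28 log2 units (SE 0.12, 95% interval -0.55 to -0.0043, unadjusted p = 0.047, adjusted p = 0.251, limma), with means of 8.01 ± 1.15 and 6.43 ± 0.741 FPKM (SD, n = 3).

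Fusion genes were split, with 3 higher and 5 lower means and a median difference of -0.05 log2 units, which turned to 0.0046 after quantile normalization and to 0.03 without control liver 1. Vps41, a subunit of the HOPS tether, measured 17.9, 19.3 and 18.9 FPKM in control livers and 21.1, 20.4 and 21.7 FPKM in lipophagy livers. Rab7 measured 90.2, 87.3 and 88.0 FPKM against 90.3, 94.7 and 95.5 FPKM. The groups did not overlap for either gene, although control liver 1 and lipophagy liver 1 were almost equal for Rab7. The difference of Vps41 was 0.16 log2 units (SE 0.073, adjusted p = 0.266, limma) and became 0.07 after quantile normalization, and that of Rab7 was 0.08 (adjusted p = 0.561, limma) and turned to -0.06 after quantile normalization.

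The remaining fusion genes overlapped between groups. Plekhm1, an adaptor between RAB7, HOPS and LC3, had the lowest difference of the step. Control livers had 3.07, 2.85 and 3.01 FPKM and lipophagy livers 2.23, 2.97 and 3.09 FPKM, so that lipophagy liver 1 alone was low (-0.09 log2 units, adjusted p = 0.665, limma). The autophagosomal SNARE Stx17 differed by -0.04, its partner Snap29 by 0.08, and the HOPS subunit Vps39 by -0.05 log2 units. The tethers Epg5 and Tecpr1 differed by -0.06 and -0.05, and by 0.03 each after quantile normalization.

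Control by mTOR and TFEB showed no common direction. Rptor, the mTORC1 subunit raptor that presents substrates to the kinase, measured 3.55, 3.59 and 3.21 FPKM in control livers and 3.92, 3.84 and 4.10 FPKM in lipophagy livers. These livers did not overlap (0.16 log2 units, SE 0.077, adjusted p = 0.303, limma). The kinase gene Mtor differed by -0.05 log2 units (95% interval -0.24 to 0.15). Tsc1 and Tsc2, whose products restrain mTORC1, differed by 0.04 and -0.02.

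Tfe3 measured 8.27, 9.26 and 9.70 FPKM in control livers and 8.66, 7.32 and 6.76 FPKM in lipophagy livers. Lipophagy liver 1 lay above control liver 1, and the groups overlapped (-0.24 log2 units, SE 0.10, 95% interval -0.48 to 0.01, adjusted p = 0.264, limma). Tfeb measured 3.35, 3.47 and 4.13 FPKM against 3.01, 4.02 and 3.82 FPKM. Its difference was -0.01 log2 units (95% interval -0.27 to 0.25), and 0.02 after quantile normalization. With the median length of its annotated transcripts, Tfeb had an estimated 35.3 to 69.5 fragments per liver, and a longer transcript would give more.

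**Figure D4:**
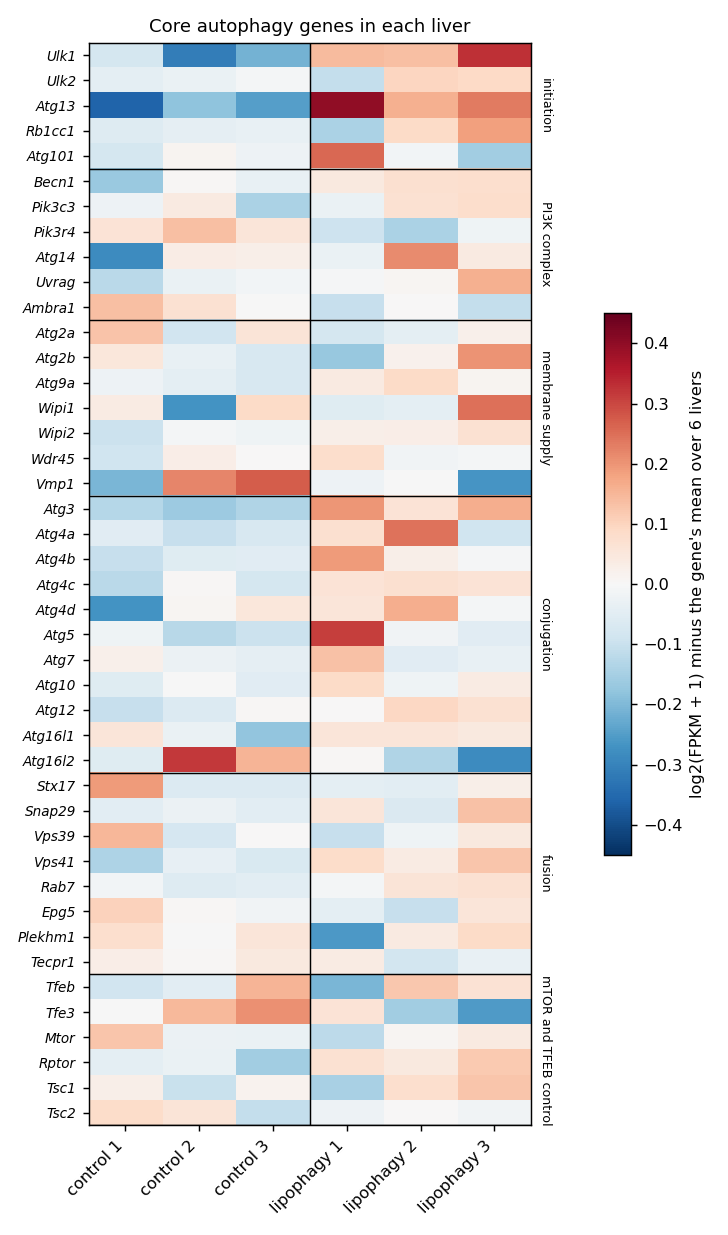
Deviation of log2(FPKM + 1) from each gene's mean over the 6 livers, with 1 row per gene in the order of the steps and 1 column per liver, on a colour scale from -0.45 to 0.45. Atg13 and Ulk1 are low in all 3 control livers and high in all 3 lipophagy livers, and many other rows have 1 liver that stands apart.

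Livers were also compared across all 43 genes. The mean deviation in livers 1, 2 and 3 was -0.04, -0.02 and -0.02 log2 units for the control group, against 0.02, 0.03 and 0.04 for the lipophagy group. Lipophagy liver 3 held the highest value of 14 genes and control liver 1 the lowest value of 12. For conjugation the mean deviations were 0.11, 0.05 and -0.01 in lipophagy livers, against -0.08, -0.02 and -0.04 in control livers, and for fusion they were -0.04, -0.02 and 0.06 against 0.04, -0.03 and -0.02.

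A single scaling factor per liver cancels in a ratio of genes within that liver, so 11 pairs of related genes were compared in this way. A scaling that depends on the level of a gene, such as quantile normalization, does not cancel. The Ulk1 to Ulk2 log2 ratio was 0.49, 0.22 and 0.30 in the control group against 0.80, 0.56 and 0.78 in the lipophagy group. All lipophagy livers were thus higher, with an average ratio of 1.64 against 1.27. The Mtor to Rptor log2 ratio was 0.57, 0.37 and 0.53 against 0.13, 0.32 and 0.26, which was lower in every lipophagy liver and averaged a ratio of 1.18 against 1.40. The Vps39 to Vps41 log2 ratio was -2.04, -2.43 and -2.30 against -2.59, -2.44 and -2.45, and was also lower in every lipophagy liver, by a narrow gap. Its difference of -0.24 was -0.13 without control liver 1. Each of these 3 pairs had an exact permutation p of 0.1 (two-sided), the smallest that 3 livers against 3 allow, and an adjusted p of 0.367 over the 11 pairs. The Atg16l1 to Atg16l2 ratio averaged 1.55 against 1.15 with overlapping livers (exact permutation p = 0.2). The other 7 pairs, Tfeb to Tfe3 among them, had exact permutation p values of 0.4 or more.

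**Figure D5:**
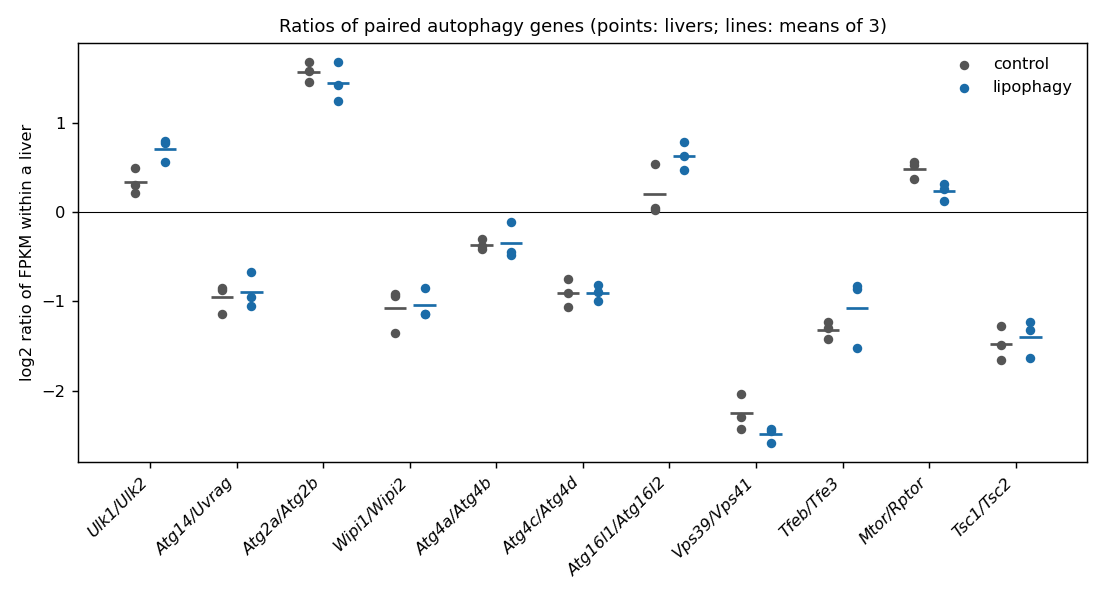
Log2 ratio of FPKM within each liver for the 11 gene pairs, with points for livers and lines for the means of 3. Lipophagy livers lie above control livers for Ulk1 to Ulk2 and below them for Mtor to Rptor and Vps39 to Vps41, and the groups overlap in the other 8 pairs.

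The other genes of the pathway were counted in the same fit. Of 58 listed genes, 53 were tested, 37 (69.8%) had a higher and 16 a lower mean, beside 54.5% higher among all tested genes, the median difference was 0.08 log2 units, and none had an adjusted p below 0.05. At an unadjusted p below 0.05, 5 (9.43%) were higher and 1 (1.89%) was lower, beside 11.5% and 7.97% of all tested genes. All 7 mTORC1 partners and substrates had higher means, with a median of 0.16, and of the 15 tested genes of lysosomal nutrient sensing 12 were higher. The 6 tested genes of AMPK and LKB1 were 2 higher and 4 lower, with a median of -0.01.

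Among these genes Ykt6, a SNARE of autophagosome fusion, had 20.4 ± 0.114 FPKM in control and 25.1 ± 2.10 FPKM in lipophagy livers (SD, n = 3), with no overlap (0.29 log2 units, adjusted p = 0.162, limma). Tmem41b, the scramblase that works with VMP1, had 6.93 ± 1.15 and 8.99 ± 0.626 FPKM, also without overlap (0.34 log2 units, adjusted p = 0.1998, limma). Ddit4l, a stress-induced inhibitor of mTORC1, was lower in every lipophagy liver, at 2.13 ± 0.437 against 1.14 ± 0.402 FPKM (-0.55 log2 units, adjusted p = 0.160, limma). Its relative Ddit4 had a higher mean with overlapping livers (0.45 log2 units, adjusted p = 0.222, limma). Ddit4 and Ddit4l, the genes with the largest differences, and Ykt6 and Tmem41b were singled out after their values were seen. Of the 10 ATG8 proteins and receptors 6 had higher and 4 lower means, and Sqstm1, the receptor p62, was lower in every lipophagy liver (270 ± 10.3 against 229 ± 19.03 FPKM, -0.24 log2 units, adjusted p = 0.219, limma), while Tax1bp1, a further receptor, was higher in every one (45.1 ± 1.71 against 50.5 ± 1.32 FPKM, 0.16 log2 units, adjusted p = 0.273, limma).

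The livers themselves differed in ways that touch these values. The sum of FPKM over all genes was 622696 to 681138 in control and 709993 to 782392 in lipophagy livers, without overlap, and depth estimated from the steps between low values was 21.0 to 31.3 M fragments. The summed FPKM of 6 hepatocyte markers was 55478 to 63066 in control and 67292 to 90027 in lipophagy livers, also without overlap, and none of the 6 was at 0. Most of this sum was Alb, and without Alb, a sum added after the values were seen, the other 5 overlapped at 20008 to 23907 against 22283 to 25938 FPKM. Of the 6, 5 had higher means, beside 54.5% of all tested genes. An unadjusted p below 0.05 (limma) was reached by 3 of them, all higher, beside 11.5% of all tested genes. The lowest adjusted p of the 6 was 0.204 (limma). Alb (0.47 log2 units) and Ttr (0.24) were higher in every lipophagy liver, and Tat (0.995), Fgb (0.29), Cps1 (0.16) and Apoa1 (-0.06) overlapped. For macrophages the sum of 6 markers was 411 to 576 against 411 to 535 FPKM, for stellate cells (6 markers) 131 to 150 against 108 to 143, and for endothelium (6 markers) 21.3 to 27.2 against 25.6 to 41.5. Lyz2, Dcn and Clec4g, in this order, made up most of these sums. The sums of bile duct (4 markers), lymphocyte (6), neutrophil (3 of 4 in the table) and red cell markers (3 of 4) also overlapped, the neutrophil sums only at 17.7 FPKM. Single markers did separate the groups, as did 26.2% of all tested genes. The stellate cell markers Col1a1 (6.35 against 3.41 FPKM, adjusted p = 0.103, limma) and Pdgfrb (2.61 against 1.89 FPKM, adjusted p = 0.135, limma) were lower in every lipophagy liver, while Dcn, Des, Reln and Lrat overlapped, with a higher mean for Lrat (0.25 log2 units). The macrophage markers Csf1r (16.06 against 13.02 FPKM) and Cd68 (36.8 against 27.9 FPKM) were also lower in every lipophagy liver, while Lyz2 and Cd14 overlapped, as did Adgre1 (0.05 log2 units) and Clec4f (0.17), which had higher means. Lower in every lipophagy liver were further S100a9 of neutrophils (11.2 against 6.88 FPKM) and the leukocyte gene Ptprc (2.901 against 2.199 FPKM). S100a8 overlapped, with a lower mean (-0.37 log2 units). The other tested lymphocyte markers also overlapped, with higher means for Cd79b (0.09) and Cd3g (0.0018) and a lower mean for Cd79a (-0.12). Alas2 of red cells was higher in every lipophagy liver (74.0 against 88.9 FPKM), while Hba-a1 (0.88 log2 units) and Hbb-bs (1.03) overlapped, with higher means. The part of these shifts in the differences of autophagy genes was not tested. In whole liver RNA, a change in the number of cells of a type and a change in RNA per cell cannot be told apart. The construct itself was not measured here.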

How the data were processed

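Poly(A) RNA libraries of whole liver, 3 of the control and 3 of the lipophagy group, were sequenced in paired-end mode. The authors deposited 1 FPKM value per gene symbol and liver, apart from 2 duplicated symbols. The submitters' processing notes name TopHat2 2.0.13, Bowtie2 2.2.3, SAMtools 0.1.19 and Cufflinks 2.2.1 and mm10. The annotation, the strand setting of the counting and any batch are not given in the sources used here, and overlapping genes could share reads.

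Groups and replicate numbers came from the sample titles, and the sources used here do not tie each library to a mouse, so p-values measure the spread between these samples, which may be technical in part. From FPKM, log2(FPKM + 1) was computed, which understates the change of low genes. Genes whose mean over the livers reached 0.5 FPKM, 11493 in all, entered limma 3.58.1 under R 4.3.3 (two-sided, moderated variance with an intensity trend, no covariates) and Benjamini-Hochberg adjustment at 0.05. Ratios of gene pairs were compared with exact permutation tests in scipy 1.17.1. Plots were drawn with matplotlib 3.10.9, and tables were handled with pandas 2.3.3 and numpy 2.4.6 in Python 3.11.15. The procedure was tested on simulated data.

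The members, steps and gene lists were chosen with earlier results of these data known. Genes given with a value in each liver were those that passed the adjusted test, did not overlap, had an unadjusted p below 0.05, or had the largest positive or negative difference of a step. Atg5 and Tfeb, outside this rule, were added after their values were seen, as were the other pathway genes and markers named. Depth was estimated, since FPKM carries no counts. Low values of a gene in 2 livers stand in ratios of whole numbers, and GENCODE transcript lengths set the scale, so fragment numbers are estimates that cover counting error only. Gene coordinates, exon overlaps and promoters are of GRCm38, the build that mm10 names. Alternatives were other pseudocounts and filters, quantile and median scaling, no trend, quality weights, the replicate number as a block, and each liver left out. In all, 27 symbols had been turned into dates and were left as they stood.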

Additional observations from a re-analysis of the deposited data

How the results depend on the processing

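Across all 16 alternatives 28 of the 43 genes kept the sign of their difference and 15 turned in at least 1, and no alternative gave a member an adjusted p below 0.05. Atg13 and Ulk1 kept an unadjusted p below 0.05 in every alternative, Atg3 in all but quantile normalization, and Atg16l2 in 2 of the 6 fits that left out a liver and 7 of the other 10. The count of all genes with an adjusted p below 0.05 was 3, and became 1 with no filter, 39 with quality weights and 43 with the replicate number as a block, and 1 to 11 without 1 liver. The count of members lower at an unadjusted p below 0.05 was 1, and became 0 with no filter, same median or the replicate block, 3 with quantile normalization or quality weights, and 0 to 3 without 1 liver. Same-numbered livers deviated together with r = 0.25, 0.23 and -0.06, and control liver 3 correlated best with lipophagy liver 2 (0.25). With so few livers these correlations cannot settle whether the numbers pair the livers.

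Medians moved with quantile normalization to 0.02997 for all members, 0.0462 for the PI3K complex, 0.00212 for membrane supply, 0.00456 for fusion (-0.0101 with quality weights) and 0.000225 for mTOR and TFEB control, which quality weights took to 0.00174. Without 1 liver they were 0.0561 to 0.0894 for members, 0.0788 to 0.179 for initiation, 0.0583 to 0.127 for the PI3K complex, 0.000693 to 0.0894 for membrane supply, -0.0681 to 0.0259 for fusion and -0.0471 to 0.0434 for mTOR and TFEB control. Quantile normalization turned or moved by over 1.5 times the difference of 23 of the 43 genes, and left an unadjusted p below 0.05 for 3 higher (Atg13, Ulk1, Rptor) and 3 lower members (Atg16l2, Tfe3, Vmp1). It turned Atg101 to -0.0597, Wdr45 to -0.0801, Atg7 to -0.0414, Rab7 to -0.0645, Epg5 to 0.0272, Tecpr1 to 0.02997 and Tfeb to 0.0248, and quality weights turned Tfeb to 0.00706. Without 1 liver the sign turned, with ranges of -0.0549 to 0.153 for Atg101, -0.0588 to 0.128 for Atg2b, -0.0112 to 0.167 for Wipi1, -0.0273 to 0.0646 for Atg7, -0.0856 to 0.0413 for Stx17, -0.103 to 0.0105 for Vps39, -0.151 to 0.0202 for Plekhm1, -0.0769 to 0.0855 for Tfeb, -0.0779 to 0.00378 for Mtor, -0.0168 to 0.119 for Tsc1 and -0.0837 to 0.0121 for Tsc2. The difference in the log2 ratio of Atg4c to Atg4d became -0.00909 with a pseudocount of 1. Without 1 liver the differences in log2 ratio were -0.0469 to 0.141 for Atg14 to Uvrag, -0.119 to 0.104 for Wipi1 to Wipi2, -0.101 to 0.0855 for Atg4a to Atg4b, -0.0739 to 0.0831 for Atg4c to Atg4d and -0.0100 to 0.197 for Tsc1 to Tsc2. The causes were not tested. With 3 livers a group, differences near the standard errors of 0.071 to 0.14 log2 units could not be told from 0, and estimated fragment numbers depend on the transcript length assumed.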
